A study of Homo sapiens with 4 samples.

Results

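Messenger RNA of the cell cycle cyclin-dependent kinases, the CDC25 phosphatases that activate them and their CKS partner proteins was measured in SCC-15, a human cell line from a squamous cell carcinoma of the tongue. The members are 10 genes: CDK1, CDK2, CDK4, CDK6, CDK7, CDC25A, CDC25B, CDC25C, CKS1B and CKS2. Every probe set that the platform annotation assigns to exactly 1 of these genes was taken, which gave 29 of the 49293 probe sets on the array; no probe set shared between several genes named a member. The tested cells received a microRNA mimic at 30 nM and the control cells received miR-NC, a negative control oligonucleotide, and RNA was taken 36 h after transfection, with 2 arrays per group. The series title and design text call the mimic miR-762, whereas the labels of both mimic samples call it miR-585-5p, so the group is called mimic here. Both groups are the same line, seeded 24 h before transfection. Nothing in the labels said that the replicates came from separate cultures, so the p-values below cover only array-to-array spread within a group, and that may be technical.

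Progress through the cell cycle is driven by kinases that are active only when bound to a cyclin. CDK4 and CDK6 pair with D-type cyclins in G1, CDK2 with cyclins E and A around S phase, and CDK1 with cyclins A and B for entry into mitosis. CDK7, with cyclin H and MNAT1, phosphorylates the activating site of the other kinases. WEE1 and PKMYT1 hold CDK1 and CDK2 inactive by phosphorylation, the CDC25 phosphatases remove those phosphates, and CKS1B and CKS2 are small subunits that bind the kinases and help them act on substrates. Much of this regulation is on protein, which arrays of RNA do not measure.

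The mature sequences of both microRNAs named for the mimic are shown because the sources do not settle which was used. They are from RefSeq (GRCh38.p14), with the seed, bases 2 to 8, in capitals. The seeds are different, and the chemistry and exact sequence of the transfected oligonucleotide were not given.
hsa-miR-762, chr16:30893951-30893972, + strand: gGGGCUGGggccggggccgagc
hsa-miR-585-5p, chr5:169263649-169263670, - strand: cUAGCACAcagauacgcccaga

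Promoter windows of the members are shown because several members belong to gene classes known for transcription at set times of the cell cycle. As background, genes expressed late in the cycle often carry a cell cycle genes homology region (CHR) downstream of CCAAT boxes, and genes of the G1/S transition often carry E2F sites. Windows of 300 bases, from 250 before to 50 after each annotated start site, were available from RefSeq (GRCh38.p14) for 9 of the 10 genes, in 18 windows with up to 4 per gene; for CDK2 none was used. Both strands were searched. The CHR was written as TTTGAA or as TTCGAA, the CCAAT box as these letters, and the E2F site as TTGGCGC or else TTGCCGC or else TTCGCGC or else TTCCCGC. A CHR match was found in at least 1 window of 5 genes, CDK1, CDC25B, CDC25C, CKS1B and CKS2, in 7 of 18 windows, against 16.4% of all 34943 promoter windows. CCAAT was found for the same 5 genes and CDC25A, in 9 of 18 windows, against 34.6% of all windows. An E2F match was found for CDK1, CDC25A, CDC25B and CDC25C, in 6 of 18 windows, against 12.9% of all windows. Neither window of CDK6 nor those of CDK4 and CDK7 held any of the 3 motifs. Windows of 1 gene can overlap and share matches, as those of CDK1 and CDC25C do, the 2 E2F matches of CDC25A overlap each other, and a match is a run of letters, not a measured binding site. In the windows below, matches are in capitals on the strand of the gene (a match to the opposite strand appears reversed and complemented, as in ATTGG for CCAAT). The CHR match started 29 bases before the start site in CKS2, 30 before it in CKS1B and 30 before it in the CDC25C window shown, whereas the CDK1 window held 3 CHR matches, starting 69 and 13 bases before and 10 bases into the transcript. The CDK6 window is shown as an example without a match, and windows of CDC25B, which also held a CHR match, are not shown. Whether the motifs bear on the differences between mimic and control was not tested.
CKS2, chr9:89310945-89311244, + strand: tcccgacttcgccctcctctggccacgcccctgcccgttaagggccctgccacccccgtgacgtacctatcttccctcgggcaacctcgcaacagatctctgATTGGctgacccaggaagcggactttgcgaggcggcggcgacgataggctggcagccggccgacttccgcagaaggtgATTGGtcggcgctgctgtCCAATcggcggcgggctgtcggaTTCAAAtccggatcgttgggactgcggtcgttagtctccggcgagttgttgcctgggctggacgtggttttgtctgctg
CKS1B, chr1:154974431-154974730, + strand: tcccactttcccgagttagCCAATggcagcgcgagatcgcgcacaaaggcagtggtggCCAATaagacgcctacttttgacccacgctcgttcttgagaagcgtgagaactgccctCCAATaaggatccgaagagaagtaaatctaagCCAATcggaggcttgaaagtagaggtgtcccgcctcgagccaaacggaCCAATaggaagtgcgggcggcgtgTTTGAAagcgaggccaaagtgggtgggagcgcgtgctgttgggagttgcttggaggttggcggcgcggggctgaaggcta
CDC25C, chr5:138331755-138332054, - strand: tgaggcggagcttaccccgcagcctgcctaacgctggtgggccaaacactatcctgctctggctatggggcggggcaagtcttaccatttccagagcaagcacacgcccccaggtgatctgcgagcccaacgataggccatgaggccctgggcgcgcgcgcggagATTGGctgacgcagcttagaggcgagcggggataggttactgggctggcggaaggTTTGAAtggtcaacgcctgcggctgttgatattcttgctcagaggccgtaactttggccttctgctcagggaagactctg
CDK1, chr10:60778228-60778527, + strand: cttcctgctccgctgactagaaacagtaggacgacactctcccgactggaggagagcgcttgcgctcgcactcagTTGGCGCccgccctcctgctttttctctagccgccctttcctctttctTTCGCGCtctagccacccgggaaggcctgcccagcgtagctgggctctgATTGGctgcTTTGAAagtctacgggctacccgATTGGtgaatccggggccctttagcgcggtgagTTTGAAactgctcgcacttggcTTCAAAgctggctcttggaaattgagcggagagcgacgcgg
CDK6, chr7:92836524-92836823, - strand: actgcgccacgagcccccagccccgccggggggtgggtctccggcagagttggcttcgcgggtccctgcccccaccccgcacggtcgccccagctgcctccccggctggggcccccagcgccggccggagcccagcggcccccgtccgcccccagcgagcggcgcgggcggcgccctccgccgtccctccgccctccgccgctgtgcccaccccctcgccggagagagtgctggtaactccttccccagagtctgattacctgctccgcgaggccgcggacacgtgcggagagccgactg

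**Figure D1:**
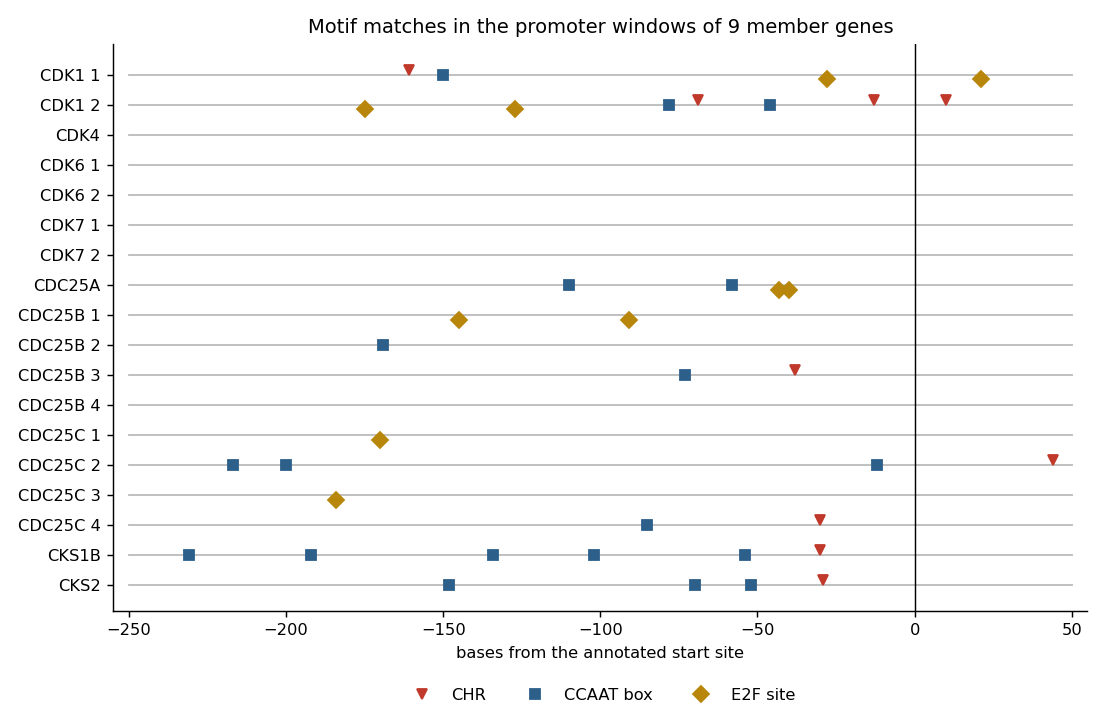
Motif matches in the 18 promoter windows of 9 member genes, 1 line per window (numbered where a gene has several), against the distance in bases from the annotated start site; symbols mark CHR, CCAAT box and E2F matches at their first base. CHR matches lie in windows of CDK1, CDC25B, CDC25C, CKS1B and CKS2, and the windows of CDK4, CDK6 and CDK7 are empty.

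All levels below are log2 of the deposited RMA intensities (a background-corrected and normalized probe set signal), and all differences are mimic minus control. Levels of different probe sets are not compared with each other. Each gene was represented by its brightest probe set over all 4 arrays after the dimmest 30% of probe sets were left out (below 2.83); all 10 members passed that filter. The genes were tested with limma, with Benjamini-Hochberg adjustment over 14340 genes, and a gene passed at an adjusted p under 0.05. A second limma test took all 49293 probe sets without a filter. Of the 10 genes, 6 rose (CDK1, CDK6, CDC25B, CDC25C, CKS1B and CKS2), 0 fell and 4 did not pass (CDK2, CDK4, CDK7 and CDC25A), where 17.7% of all genes rose, 12.3% fell and 30.1% did either; 6 members were higher and 0 lower at an unadjusted p under 0.05, against 23.8% and 21.2% of all genes. CDK1, CDK6 and CKS2 rose by 2-fold or more, as did 2.06% of all genes, and no member fell by 2-fold, as did 0.195%. In bulk RNA, more cells of a given cell cycle phase and more transcript per cell cannot be told apart. The median difference of the 10 genes was 0.33, against -0.02 for all genes tested. Both mimic arrays were above both control arrays for 7 members (34.2% of all genes) and below them for 0 (36.3%), and the groups overlapped for CDK2, CDK7 and CDC25A. Among the 29 probe sets, 10 rose and 0 fell in the probe set test, against 8.03% and 3.46% of all probe sets (11.5% either way); 16 were higher and 2 lower at an unadjusted p under 0.05, against 16.1% and 15.2% of all probe sets. By 2-fold or more, 5 of the 29 rose and 0 fell, against 1.34% and 0.0872% of all probe sets. Both mimic arrays lay above both control arrays in 22 of them and below in 2, against 27% and 31.6% of all probe sets. On leaving out mimic replicate 1 or 2, none of the 14340 genes passed, members included (lowest adjusted p over all genes 0.0550 and 0.0551), with 4 members higher at an unadjusted p under 0.05 in each case (17.3% and 16.7% of all genes). Leaving out control replicate 1 gave 3 members that passed as higher (4.02% of all genes), and leaving out control replicate 2 gave 4 (5.55%).

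**Figure D2:**
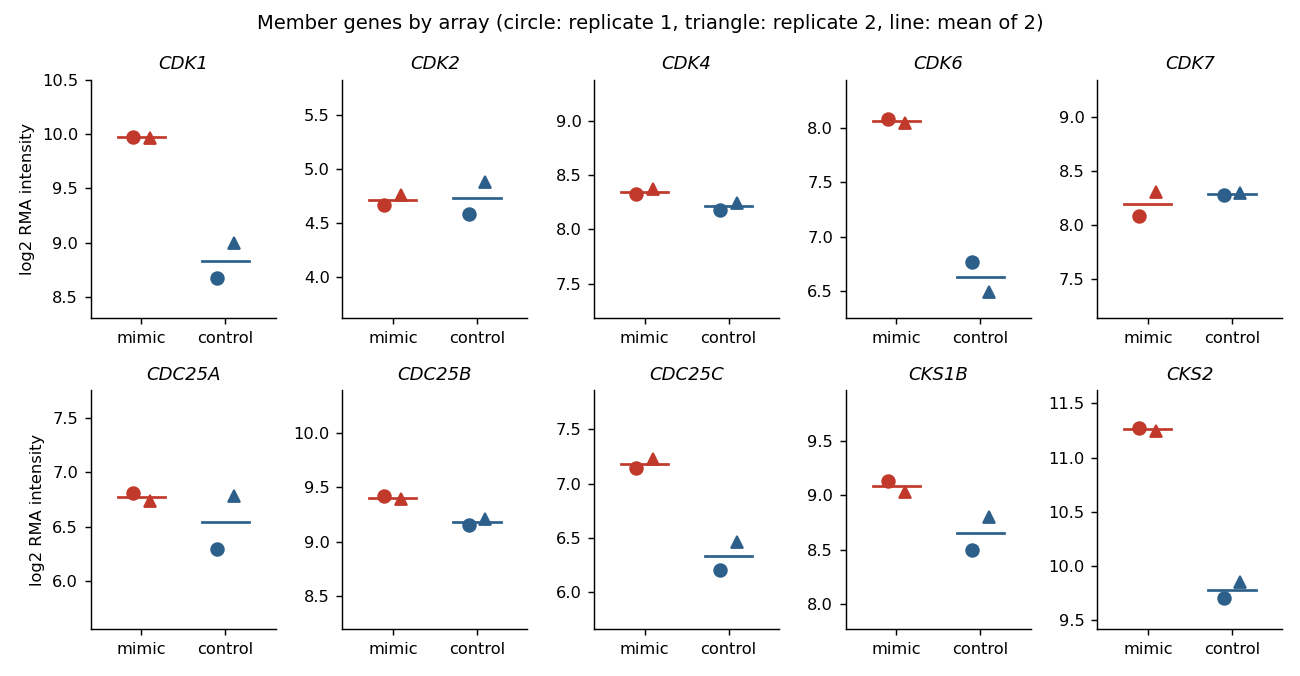
Log2 RMA intensity of the 10 genes in each array, mimic left and control right, with circles for replicate 1, triangles for replicate 2 and a line at the mean of 2 arrays; each panel spans the same log2 range. Mimic arrays lie above both control arrays in 7 panels, and the groups overlap for CDK2, CDK7 and CDC25A.

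CDK1, the kinase of mitotic entry (chromosome 10, 60778331 to 60794852, GRCh38.p14), was at 9.98 and 9.97 in mimic arrays, against 8.67 and 8.99 in control arrays. The mimic replicates nearly coincided, and the control replicates differed by more but stayed well below them. The gene rose 2.20-fold (1.14 ± 0.117 SE, limma adjusted p = 0.0043). A second probe set, at 7.13 and 7.23 in mimic arrays and at 5.99 and 6.41 in control arrays, rose by 0.98 (adjusted p over all probe sets 0.0245). The third was below the dim level in all 4 arrays (1.28 to 1.56), and its difference of -0.22 did not pass. With control replicate 1 left out the gene's difference was 0.98, and without control replicate 2 it was 1.30 (adjusted p = 0.046 and 0.043). CDK2, the S phase kinase (chromosome 12, 55966830 to 55972789), was at 4.67 and 4.76 in mimic arrays and at 4.58 and 4.88 in control arrays. The mimic values lay between the control values, and the difference of -0.02 had a 95% interval of -0.31 to 0.27 (limma adjusted p = 0.914). Its other probe sets gave -0.13 and -0.26, of which neither passed. The one at -0.26 had both mimic arrays (3.68 and 3.70) below both control arrays (3.86 and 4.04). Its limma p was 0.0322 unadjusted and 0.125 adjusted over all probe sets. The sign of the CDK2 difference turned to 0.024 without mimic replicate 1 and to 0.13 without control replicate 2.

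CDK6 and CDK4 are closely related kinases that share the D-type cyclins, and their values are given side by side. CDK6 (chromosome 7, 92604921 to 92836573) was at 8.09 and 8.04 in mimic arrays, against 6.76 and 6.49 in control arrays. It rose 2.71-fold (1.44 ± 0.105 SE, limma adjusted p = 0.00196), with a 95% interval of 1.17 to 1.71. Of its 4 probe sets 3 rose, by 1.44, 1.58 and 1.81. The largest of these was at 7.34 and 7.45 in mimic arrays and at 5.64 and 5.53 in control arrays. The fourth probe set, also above the dim level, was at 3.57 and 3.67 in mimic arrays and at 3.17 and 3.57 in control arrays. The groups met, and its difference of 0.25 did not pass (adjusted p over all probe sets 0.307). CDK4 (chromosome 12, 57747727 to 57752310) was at 8.32 and 8.37 in mimic arrays, against 8.18 and 8.25 in control arrays. The groups did not overlap, but the difference of 0.13 did not pass, and its 95% interval ran from -0.02 to 0.29 (limma adjusted p = 0.157). The other 3 probe sets of CDK4 gave 0.17, 0.23 and 0.32, likewise with mimic above control in every array, and did not pass. The 2 genes' differences were not tested against each other; with 2 arrays per group the smallest two-sided p of an exact permutation test is 0.333.

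CDK7 (chromosome 5, 69234795 to 69277430) is both the kinase that activates the other CDKs and a subunit of the general transcription factor TFIIH. Its single probe set was at 8.08 and 8.31 in mimic arrays and at 8.28 and 8.30 in control arrays. The mimic replicates spanned the control values, and the difference of -0.10 had a 95% interval of -0.33 to 0.14 (limma adjusted p = 0.451). It was 0.017 without mimic replicate 1 and -0.21 without mimic replicate 2. The partners of CDK7 in the activating complex had lower values in mimic arrays. MNAT1, the assembly factor, was at 7.56 and 7.58 in mimic arrays, against 7.81 and 7.82 in control arrays, and fell by 0.24 ± 0.0558 (SE, adjusted p = 0.0327). CCNH, which encodes cyclin H, gave -0.16 and did not pass (adjusted p = 0.104).

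The 3 CDC25 genes encode phosphatases that remove the inhibitory phosphates from the CDKs; CDC25A acts at G1/S and later, and CDC25B and CDC25C at entry into mitosis. CDC25C (chromosome 5, 138285265 to 138338355) was at 7.14 and 7.23 in mimic arrays, against 6.21 and 6.46 in control arrays. It rose 1.80-fold (0.85 ± 0.102 SE, limma adjusted p = 0.00631), and its second probe set rose by 0.89 (6.15 and 6.48 in mimic arrays, 5.31 and 5.54 in control arrays; adjusted p over all probe sets 0.0276). Both mimic arrays were above both control arrays in each probe set. Without control replicate 1 the difference was 0.72 and its call was lost (adjusted p = 0.0519), and without control replicate 2 it was 0.98 (adjusted p = 0.043). CDC25B (chromosome 20, 3786951 to 3806115) was at 9.42 and 9.39 in mimic arrays, against 9.15 and 9.21 in control arrays. The groups were apart by more than either pair of replicates, but the difference was small, 0.22 ± 0.0591 (SE), or 1.17-fold, and just passed (adjusted p = 0.0456). In the test over all probe sets the same probe set did not pass (adjusted p = 0.107), and of the 5 probe sets of CDC25B, which gave 0.11 to 0.45 with mimic above control in every array, 1 rose (0.45, adjusted p = 0.0346). Without any 1 of the 4 arrays the CDC25B difference was between 0.20 and 0.25 and did not pass. CDC25A (chromosome 3, 48157146 to 48188417) was at 6.81 and 6.74 in mimic arrays and at 6.30 and 6.78 in control arrays. Control replicate 2 lay among the mimic arrays and control replicate 1 below them, and the difference of 0.23, with a 95% interval of -0.19 to 0.66, did not pass (adjusted p = 0.321). It was -0.0087 without control replicate 1 and 0.48 without control replicate 2. The other 2 probe sets of CDC25A gave 0.33 and 0.31 and did not pass.

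CKS1B and CKS2 encode closely related small proteins that bind CDK1 and CDK2, and CKS1B is also a cofactor with which the SCF-SKP2 ubiquitin ligase recognises the CDK inhibitor p27. CKS2 (chromosome 9, 89311195 to 89316703) was at 11.28 and 11.25 in mimic arrays, against 9.70 and 9.85 in control arrays. Replicates were close in both groups, and the gene rose 2.80-fold (1.48 ± 0.0732 SE, limma adjusted p = 0.00112), the largest difference of the 10 representative probe sets and 82nd of 14340 genes in order of increase. The value rests on 1 probe set, and it stayed between 1.41 and 1.56 when any array was left out. CKS1B (chromosome 1, 154974681 to 154979251) was at 9.13 and 9.04 in mimic arrays, against 8.50 and 8.80 in control arrays. It rose 1.35-fold (0.43 ± 0.115 SE, adjusted p = 0.0464), and the other 2 probe sets gave 0.49 and 0.35, all with both mimic arrays above both control arrays. In the test over all probe sets only the one at 0.49 passed (adjusted p = 0.0449, against 0.086 for the representative probe set). All 3 are of the _s_at or _x_at kind, which can match more than 1 transcript, so that signal from other copies cannot be told apart. Leaving out control replicate 1 gave a CKS1B difference of 0.28, and leaving out control replicate 2 gave 0.59, neither of which passed (adjusted p = 0.108 and 0.0572).

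**Figure D3:**
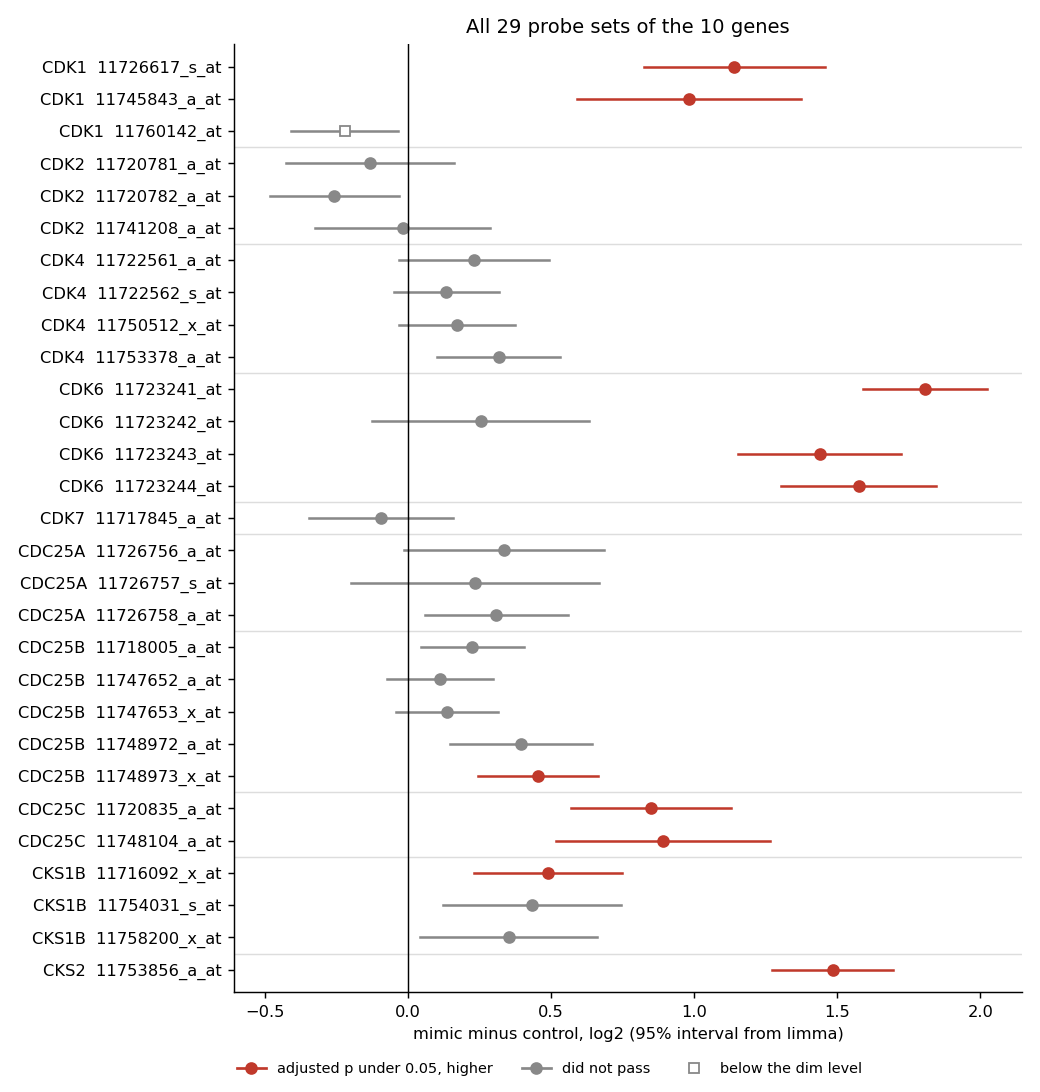
Difference between mimic and control (log2, horizontal axis) with its 95% limma interval for each of the 29 probe sets, grouped by gene; red marks an adjusted p under 0.05 over all probe sets, grey did not pass, and the open square is below the dim level. The 10 red probe sets belong to CDK1, CDK6, CDC25B, CDC25C, CKS1B and CKS2.

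The control arrays carried most of the spread among the members. The SD between control replicates was above that between mimic replicates in 9 of the 10 genes, against 57.8% of all genes tested, and in 23 of the 29 probe sets, against 55.8% of all probe sets. Control replicate 1 was below control replicate 2 in 9 of the 10 genes, CDK6 being the exception, against 56.8% of all genes, and the median gap was 0.20. Over all probe sets replicate arrays correlated at 0.998 (mimic) and 0.997 (control), and median intensities were between 17.2 and 17.5 on every array. Of 9 epithelial markers listed for this squamous line, KRT17, KRT6A and TP63 had no probe set of their own. The other 6 were KRT5, KRT14, DSG3, DSC3, CDH1 and EPCAM, all above the dim level. Their summed linear intensities were 9459 to 9678 in mimic arrays and 6818 to 7236 in control arrays. KRT5 was at 12.31 and 12.32 in mimic arrays and at 11.86 and 11.79 in control arrays. Differences were 0.48 for KRT5, 1.15 for KRT14, 0.47 for DSC3, 0.15 for EPCAM, 0.04 for CDH1 and -0.07 for DSG3. PTPRC, which defines leukocytes, was at 1.20 to 1.52, below the dim level. Of the 4 leukocyte markers, CD14 gave 0.53 and CD68 0.34, whereas PTPRC gave -0.10 and CD3E -0.02. The sum over 4 leukocyte markers, 3 of them above the dim level and CD68 the brightest, was 116 to 123 in mimic arrays and 88.2 to 99.6 in control arrays. That of 6 fibroblast markers, 3 above the dim level, was 55.4 to 62.4 in mimic arrays and 66.0 to 68.0 in control arrays. That of 3 endothelial markers, all above the dim level, was 58.3 to 59.7 in mimic arrays and 64.5 to 65.4 in control arrays. The part of these markers in the results was not tested.

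Partner genes of the CDKs were examined with lists of related genes. Among 12 listed cyclin and activating complex genes 11 were tested. Of these 5 were called higher, 1 was called lower (MNAT1) and 5 missed the threshold, against 17.7% of all genes higher and 12.3% lower. The median difference was 0.40, against -0.02 for all genes. The genes that rose most were those of cyclins A and B. CCND1, which encodes the D-type cyclin D1, rose by 0.47 (adjusted p = 0.00979). The cyclin E genes CCNE1 and CCNE2 gave 0.40 and 0.17 and did not pass (adjusted p = 0.0561 and 0.494). CCNA2, which encodes cyclin A2, was at 8.14 and 7.97 in mimic arrays, against 4.95 and 4.94 in control arrays (8.65-fold, adjusted p = 0.000784). CCNB1, the cyclin B1 gene, was at 8.97 and 9.11 in mimic arrays, against 7.19 and 7.40 in control arrays (3.34-fold, adjusted p = 0.0013). CCNA1 and CCNB2 rose by 1.10 each. Mimic arrays were above control arrays for CCNA1, CCNA2, CCNB1 and CCNB2 by more than the replicates differed. As for the members, these calls were lost without either mimic array, and 3 genes of this list passed as higher without control replicate 1 and 4 without control replicate 2. The MNAT1 call was lost without any 1 of the 4 arrays, with no filter on dim probe sets and with the replicate block.

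Inhibitors of the CDKs were called in both directions, as were all genes tested. The list held 11 genes, 9 of them tested: 3 were called higher, 2 lower and 4 neither, at a median of 0.07. Over all genes 17.7% were called higher and 12.3% lower. With no filter on dim probe sets 2 of the 10 genes then tested were higher and 1 lower (12% and 7.56% of all genes). After each array was centred on its median 4 were higher and 1 lower. With the lowest 50% left out, with an intensity trend and with log2(value + 16), 4 were higher and 2 lower. In these 3 settings 24.6%, 21.2% and 21% of all genes were higher, and 16%, 14.1% and 13.8% lower. CDKN1A, which encodes p21, was at 9.90 and 9.91 in mimic arrays, against 11.04 and 11.04 in control arrays, and fell by 1.13 ± 0.0556 (SE, adjusted p = 0.00112). CDKN2B, an inhibitor of CDK4 and CDK6, fell by 0.33 (adjusted p = 0.042). CDKN1C, which encodes p57, was at 7.86 and 7.93 in mimic arrays, against 6.47 and 6.71 in control arrays, and rose by 1.30 (adjusted p = 0.00196). CDKN3, a phosphatase that acts on the activating site of CDK2, rose by 1.45 (adjusted p = 0.0013), with differences between -0.36 and 1.75 over 8 probe sets. The inhibitory kinase genes opposed by CDC25 did not pass: WEE1 gave 0.20 (adjusted p = 0.0562), with 8.45 and 8.46 in mimic arrays and 8.22 and 8.28 in control arrays, and PKMYT1 gave 0.07 (adjusted p = 0.567). After a further quantile normalization the median of the inhibitor list was -0.02. The 5 calls of this list were lost without either mimic array, and 2 genes passed as higher and 1 as lower without either control array.

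Among regulators of CDC25 (kinases, ubiquitin ligase subunits and 14-3-3 proteins), 4 of 14 tested genes were called higher, 0 lower and 10 neither, with a median of 0.11 and 6 at an unadjusted p under 0.05. Of all genes, 17.7% were called higher, 30.1% were called either way and 45% had such a p, so these counts lie near the background. Without _s_at and _x_at probe sets 2 of the 11 genes then tested were called higher (15.6% of all genes). After quantile normalization 3 of 14 were higher and 1 lower (14.4% and 18.3% of all genes). CHEK1, the checkpoint kinase that marks CDC25A for degradation, was at 7.84 and 7.85 in mimic arrays, against 7.02 and 7.03 in control arrays (0.82, adjusted p = 0.00172). CHEK2 rose by 0.54 (adjusted p = 0.0121), and PLK1, the mitotic kinase that activates CDC25C, rose by 0.76 (adjusted p = 0.0239). YWHAQ, a 14-3-3 gene, rose by 0.21 (adjusted p = 0.0449). Probe sets of 1 gene differed here too, from 0.26 to 1.20 for PLK1 and from -0.12 to 0.54 for CHEK2. Leaving out control replicate 1 gave 2 genes that passed, leaving out control replicate 2 gave 1, and 0 genes passed without either mimic array, where 3 and 4 genes were higher at an unadjusted p under 0.05. A list of 5 genes held SKP1, SKP2, CUL1 and RBX1 of the SCF ligase with which CKS1B works, and the partner gene CDC34. None of the 5 passed in limma (median -0.04). CDC34, with a difference of -0.21, was the 1 with an unadjusted limma p under 0.05, against 45% of all genes, and it is named after its value was seen. With the median over probe sets 1 gene passed as higher and 2 as lower, against 15.6% and 9.6% of all genes. After quantile normalization 2 passed as lower (18.3% of all genes), and also without _s_at and _x_at probe sets (10.3%).

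Other CDK genes, most of which act in transcription or outside the cell cycle, were set beside the members. The list held 16 genes, 14 of them tested: 3 were called higher, 2 lower and 9 neither, at a median of 0.06, against 6 higher, 0 lower and a median of 0.33 for the 10 members; the lists were not tested against each other. These counts lie near the 17.7% of all genes called higher and the 12.3% called lower. Without _s_at and _x_at probe sets 11 of the list were tested, and 1 was higher and 0 lower (15.6% and 10.3% of all genes). The probe sets that represent CDK8 and CDK14 are of the _s_at kind and were left out there. With the replicate block 3 were higher and 0 lower (13.5% and 6.83% of all genes). CDK8, a kinase of the Mediator complex, was at 7.09 and 7.26 in mimic arrays, against 5.84 and 5.70 in control arrays (1.41, adjusted p = 0.00151), but its second probe set gave -0.02. CDK19, the paralog of CDK8, rose by 0.81 (adjusted p = 0.00509), with probe sets from -0.37 to 0.81. CDK14 rose by 0.83 (adjusted p = 0.00255), with probe sets from -0.02 to 0.83. CDK17 fell by 0.31 (adjusted p = 0.0209). With the median over probe sets in place of the brightest the median of this list was -0.01, and after a further quantile normalization it was -0.03. Without control replicate 1 and 2, 1 and 2 of its genes passed as higher and 0 as lower, and 0 passed without either mimic array.

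**Figure D4:**
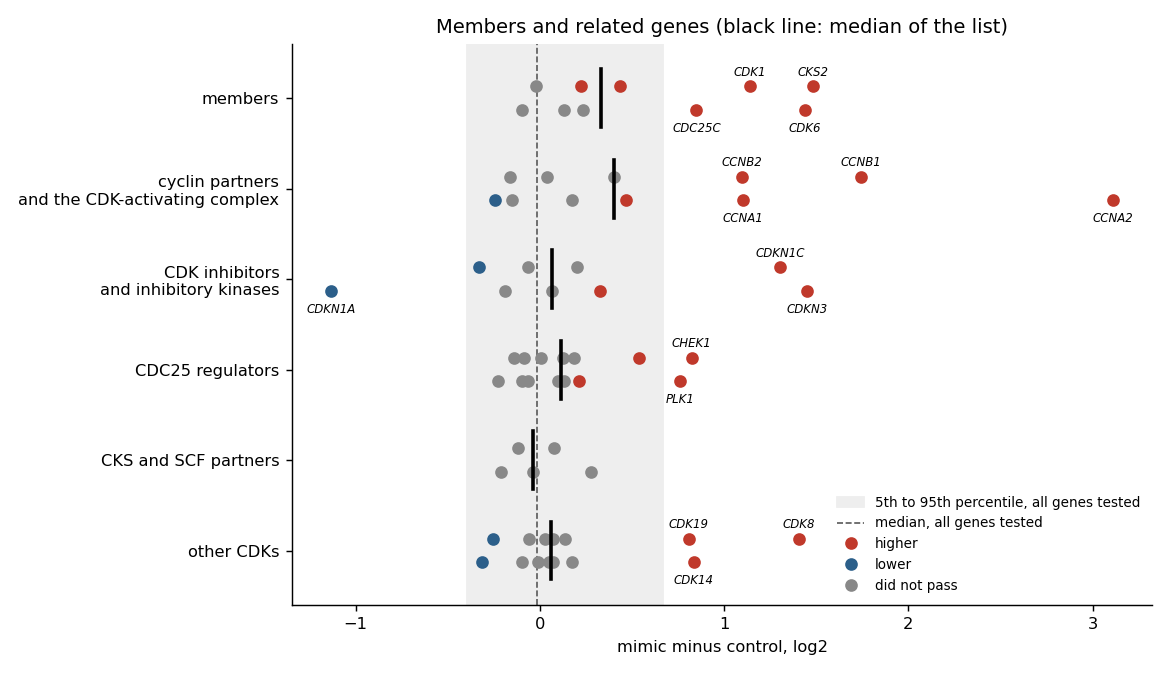
Difference between mimic and control (log2) for the 10 members and the tested genes of 5 related lists, with red for higher and blue for lower at an adjusted p under 0.05, grey for genes that did not pass and a black line at each median; the grey band runs from the 5th to the 95th percentile of all genes tested (-0.39 to 0.67). CDK1, CDK6, CDC25C and CKS2 lie to the right of the band, CCNA2 is farthest right and CDKN1A farthest left.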

How the data were processed

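The deposited values are RMA intensities, per the submitters' processing notes (RMA corrects background, normalizes across arrays and summarises the probes of a set), with no software or version named there. They are on a linear scale, 1 per probe set and array (1.62 to 11401), so log2 was taken. There are no detection calls; RMA compresses differences of dim probe sets, and the number of arrays limits the precision. Probe sets were named from the platform annotation, with symbols updated by gene identifier to RefSeq GRCh38.p14: of 49293, 44988 had 1 gene, 1832 several and 2473 none. The main test was limma 3.58.1 (R 4.3.3; lmFit, eBayes), 2 mimic against 2 control arrays, without a replicate block, on 14340 genes, and for probe sets on all 49293. Errors are limma's standard errors (4.98 degrees of freedom), intervals are 95%, and the script was tested on simulated data. Alternatives changed the dim filter, the probe set for a gene, the prior variance, the log offset, the scaling, the block and the arrays kept. Deviations of same-numbered arrays correlated at -0.0018, and no label says that a number marks a shared batch. Named genes were all members, up to 4 passing genes per related list with the largest difference, and CCNA2, CCNB1, CDKN1A, CCNH, MNAT1, WEE1 and PKMYT1. CDC34, CCND1, CCNE1 and CCNE2 were named outside this rule. Members and lists were chosen with earlier results of these data known. Protein sequences were not used here.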

Additional observations from a re-analysis of the deposited data

How the results depend on the processing

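Of 14 alternatives to the gene test, CDK1, CDK6 and CKS2 kept their direction and passed in 12, losing the call without mimic replicate 1 or 2; CDC25C lost it also without control replicate 1. CDC25B lost it in 9 of 14 and CKS1B in 7 of 13, including no dim filter (adjusted p = 0.0685 and 0.0643), quantile normalization (0.0886 and 0.0647) and each left-out array. Signs of genes that did not pass turned for CDK2 (0.024 without mimic replicate 1; range over left-out arrays -0.17 to 0.13), CDK7 (0.017 without mimic replicate 1; -0.21 to 0.017) and CDC25A (-0.0087 without control replicate 1; -0.0087 to 0.48). With arrays left out 1 at a time, 0 to 4 member genes, 0 to 796 of all genes higher and 0 to 167 lower passed. Of the probe sets 0 to 0 passed, members included, against 10 member probe sets, 3956 higher and 1707 lower of all. A lone array leaves 1 fewer residual degree of freedom and is assumed to vary like the other group. The median difference of the 29 member probe sets was then between 0.20 and 0.46, against -0.034 to -0.014 for all probe sets. The labels' replicate numbers gave no evidence of pairing. With the replicate block, 979 genes were lower and 1939 higher, 4 member genes and 5 member probe sets were higher, CDC25B and CKS1B did not pass (adjusted p = 0.0874 and 0.0841), and 899 probe sets were higher and 78 lower. Probe sets called lower numbered 2916 with an intensity trend, 2871 with log2(value + 16), 2669 after quantile normalization and 2725 without the dimmest 30%. Quantile normalization gave 2058 genes higher and 2619 lower (44.0% of calls higher, against 59.03%), with 4 members higher and 0 lower. The share higher was 88.36% without control replicate 1 and 82.66% without control replicate 2. The causes of these shifts were not tested.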
